A study of Sus scrofa with 16 samples.

Results

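The accessible chromatin of pig liver was compared between the end of suckling, at 28 days (Liver_28day), and adulthood, at 180 days (Liver_180day), with ATAC-seq, which marks open chromatin by the insertion of a transposase. The members were the peaks of the merged list of each stage on chromosomes 1 to 18: 135635 of the 141689 peaks of the suckling list and 104770 of the 109003 peaks of the adult list. A peak was called suckling-only or adult-only when it shared no base with any peak of the other list, and shared when it overlapped one by at least 1 bp. By this rule 54773 suckling peaks were suckling-only, or 40.4% of that list (95% Wilson interval 40.1 to 40.6), and 27143 adult peaks were adult-only, or 25.9% (25.6 to 26.2). The other 80862 suckling peaks overlapped 77627 adult peaks.

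The 2 stages took 4 of the 16 libraries of the series, with 2 replicates each. All came from female crossbred domestic pigs, full-sib Berkshire × Tibetan hybrids according to the study's methods, which name no treatment, and the chromatin was prepared from nuclei of frozen liver. Age, diet and body growth therefore changed together between the groups, and their parts cannot be told apart. Because the replicates of each stage had been merged into 1 list before deposition, there is no replicated test of any difference between the stages. The intervals given cover counting error only, with each peak counted as if independent. A stage-only peak was called at one stage and not at the other, which is not a measurement of closed chromatin at the other.

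The liver of a suckling pig receives a diet rich in milk fat, still holds some traits of the fetal organ, and houses many blood-derived immune cells. After weaning, hepatocytes handle a starch-based diet and carry the adult load of bile acid, lipoprotein, plasma protein and drug metabolism. Hepatocyte genes are held open by liver-enriched factors such as HNF4A, HNF1, FOXA, ONECUT and CEBP proteins, and many metabolic genes answer to nuclear receptors that sense sterols, bile acids, fatty acids and thyroid hormone. Of 12 hepatocyte markers, 11 had a promoter peak in each list, ALB, APOA1 and TTR among them, so both lists held defining markers of the labelled tissue. The remaining one, CPS1, a urea cycle enzyme, had no promoter peak in either list.

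Sequences of some stage-only peaks are printed here as examples. The 10 windows shown hold 200 bp around the centre of stage-only peaks, on the + strand of Sscrofa11.1, and were chosen after their values were seen because each is free of annotated exons and holds at least 1 match to a consensus that the results below turn on. Capitals mark the matches, on either strand, to consensus sequences that were more frequent in stage-only peaks of the window's own stage. Matches to the other consensus sequences were not marked. For example, the HP window also holds TFAP2 letters and the ITGAM window NFY letters, both in lower case. The searched letters were TGTTTAC for FOXA, CCAAT for NFY, TTGCNNAA for CEBP, TTATGTAA for the D-box, TGNACTTTG for HNF4A, TTGGCA for nuclear factor I (NFI), GAGGAAGT for SPI1, GCCNNNGGC for TFAP2 and GGGCGG for SP1 and KLF factors, and the longer HNF1 and CTCF consensus sequences are given by name. Adjoining or overlapping matches appear as 1 run of capitals. A match is a run of letters, not a measured binding site.

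The first 4 windows come from adult-only promoter peaks of genes of drug metabolism, plasma proteins, growth hormone signalling and glycogen. CYP2C34, a cytochrome P450 gene, held a FOXA, an HNF1 and an NFY match, HP, which encodes haptoglobin, held 2 CEBP matches, JAK2, the kinase of the growth hormone receptor, held an NFY, a D-box and a CEBP match, and PPP1R3C, a glycogen-targeting subunit of protein phosphatase, held an HNF4A match.
CYP2C34, adult-only, chr14:106282908-106283107: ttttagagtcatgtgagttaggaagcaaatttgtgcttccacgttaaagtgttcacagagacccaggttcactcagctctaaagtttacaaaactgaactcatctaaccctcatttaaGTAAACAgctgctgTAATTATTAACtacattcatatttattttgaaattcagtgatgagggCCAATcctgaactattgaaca
HP, adult-only, chr6:14978169-14978368: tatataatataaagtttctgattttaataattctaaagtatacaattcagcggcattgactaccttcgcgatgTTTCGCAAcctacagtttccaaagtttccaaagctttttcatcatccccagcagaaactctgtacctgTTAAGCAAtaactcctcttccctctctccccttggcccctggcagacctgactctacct
JAK2, adult-only, chr1:216959833-216960032: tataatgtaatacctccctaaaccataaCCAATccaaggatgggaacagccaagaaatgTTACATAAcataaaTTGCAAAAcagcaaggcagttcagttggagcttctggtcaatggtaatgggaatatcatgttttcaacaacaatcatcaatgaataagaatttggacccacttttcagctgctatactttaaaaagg
PPP1R3C, adult-only, chr14:103280512-103280711: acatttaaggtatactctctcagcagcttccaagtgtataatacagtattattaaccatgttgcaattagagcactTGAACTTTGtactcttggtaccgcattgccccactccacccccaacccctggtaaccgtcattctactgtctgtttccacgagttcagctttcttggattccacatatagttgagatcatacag

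The next 4 come from suckling-only promoter peaks. The windows of ACSS2, a cytosolic acetyl-CoA synthetase, and PCK2, the mitochondrial form of phosphoenolpyruvate carboxykinase, each held a CTCF match. ITGAM, an integrin of myeloid cells, held an SPI1 and a TFAP2 match, and PPARG, a nuclear receptor of fat storage, held 3 SP1 KLF matches. The PCK2 window also lies 470 bp from the start of NRL.
ACSS2, suckling-only, chr17:38258011-38258210: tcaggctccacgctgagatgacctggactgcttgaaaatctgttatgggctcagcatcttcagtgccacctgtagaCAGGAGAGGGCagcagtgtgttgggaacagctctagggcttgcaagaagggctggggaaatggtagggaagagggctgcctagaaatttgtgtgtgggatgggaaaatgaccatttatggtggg
PCK2, suckling-only, chr7:75199418-75199617: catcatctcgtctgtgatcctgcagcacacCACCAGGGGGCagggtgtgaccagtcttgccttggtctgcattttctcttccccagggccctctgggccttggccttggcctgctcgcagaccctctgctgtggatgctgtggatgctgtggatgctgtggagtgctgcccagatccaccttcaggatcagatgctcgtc
ITGAM, suckling-only, chr3:17269545-17269744: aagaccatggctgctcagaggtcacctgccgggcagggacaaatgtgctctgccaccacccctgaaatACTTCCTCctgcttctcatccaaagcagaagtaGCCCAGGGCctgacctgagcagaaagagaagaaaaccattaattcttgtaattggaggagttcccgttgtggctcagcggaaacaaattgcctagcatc
PPARG, suckling-only, chr13:68301743-68301942: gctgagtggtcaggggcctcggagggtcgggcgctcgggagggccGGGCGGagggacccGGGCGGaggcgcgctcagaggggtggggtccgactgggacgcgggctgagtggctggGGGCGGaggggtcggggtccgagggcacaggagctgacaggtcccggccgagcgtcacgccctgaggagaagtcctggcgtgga

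The last pair lies away from promoters. The intronic suckling-only window had FRMD4B as its nearest gene start and held adjoining CTCF and SPI1 matches, and its peak had −log10 p values of 40.7 and 64.2 in replicates 1 and 2. The intergenic adult-only window lay 793 kb from the start of EPHA4, the nearest, held overlapping CEBP and NFI matches and an HNF1 match, and its peak had values of 119 and 122.
Intron near FRMD4B, suckling-only, chr13:50847882-50848081: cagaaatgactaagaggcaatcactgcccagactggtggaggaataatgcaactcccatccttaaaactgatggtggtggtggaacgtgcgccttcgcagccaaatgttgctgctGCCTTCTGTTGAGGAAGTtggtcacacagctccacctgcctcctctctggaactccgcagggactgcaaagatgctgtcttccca
Intergenic, adult-only, chr15:122708672-122708871: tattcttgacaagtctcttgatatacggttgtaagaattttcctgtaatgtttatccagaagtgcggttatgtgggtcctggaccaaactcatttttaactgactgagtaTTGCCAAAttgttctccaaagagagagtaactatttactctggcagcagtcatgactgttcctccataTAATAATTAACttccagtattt

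Stage-only peaks were the weak end of both lists. The strength of a peak was read as the −log10 p value of MACS2 in each replicate, and, since that value grows with sequencing depth, as its percentile within its own list. Suckling-only peaks had a median −log10 p of 5.65 in replicate 1 and 6.0 in replicate 2, against 11.6 and 18.9 for the shared suckling peaks. Adult-only peaks had medians of 9.16 and 10.9, against 26.4 and 38.3 for the shared adult peaks. The median percentile of the smaller replicate value was 27.8 for suckling-only and 67.9 for shared suckling peaks, and 28.4 for adult-only and 59.3 for shared adult peaks. Stage-only peaks were also narrow, with a median width of 264 bp against 474 bp in the suckling list and of 289 bp against 536 bp in the adult list.

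The share of stage-only peaks climbed steadily down each list. With each list divided into 10 classes of about equal size by −log10 p, 102 peaks or 0.752% of the strongest class of the suckling list were suckling-only, 37.7% of class 5 and 74.4% of the weakest class. In the adult list the same shares were 0.20% (21 peaks), 24.2% and 48.9%. Agreement between replicates, measured as the irreproducible discovery rate (IDR), also fell off down the lists. The threshold of 0.05 was met by 3651 suckling-only peaks, or 6.67% (6.46 to 6.88), against 52.3% of shared suckling peaks, and by 6046 adult-only peaks, or 22.3% (21.8 to 22.8), against 60.1% of shared adult peaks. As a description across peaks, the replicate values of the suckling-only peaks had a Spearman correlation of 0.328, those of the adult-only peaks of 0.586.

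Base composition differed between the stage-only peaks of the 2 lists. The 200 bp at the centre of suckling-only peaks had a median GC content of 55% and those of adult-only peaks of 44.5%, on either side of the 53.0% and 52.5% of shared peaks in the suckling and the adult list. The suckling-only share rose from 18.5% of suckling peaks with a GC content under 40% to 51.6% of those from 55% to 60%, and was 39.3% at 60% and above. The adult-only share fell from 51.9% through 38.2%, 27.9%, 21.2% and 16.0% to 9.28% over the same 6 classes. Suckling-only windows held on average 4.53 CpG dinucleotides and adult-only windows 3.22. GC content differed between the stages in the same libraries that carried every gene result below, and its part in those results was not tested beyond the GC class used for motifs.

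**Figure D1:**
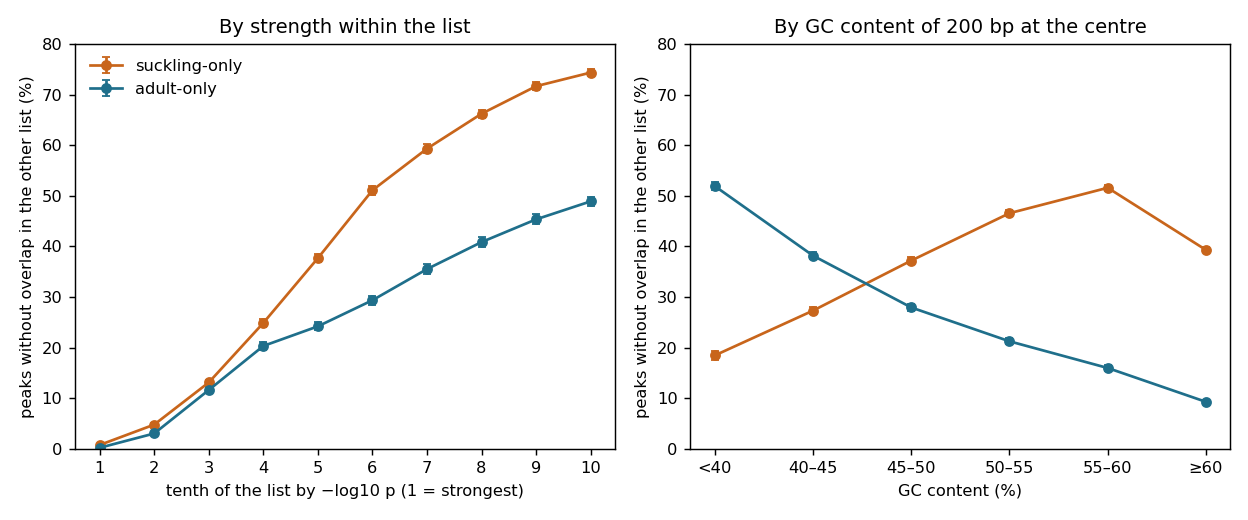
Share of peaks without an overlap in the other list (%, points, with 95% Wilson intervals as bars) by class of strength, 10 classes of about equal size by −log10 p within the list (left, 1 is the strongest) and by GC content of the central 200 bp (right). Both shares climb from under 1% to 74.4% (suckling) and 48.9% (adult) with falling strength, and they move in opposite directions with GC content below 60%.

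Stage-only peaks lay mainly in introns and between genes. Promoters, taken from 2.2 kb upstream to 500 bp downstream of a transcription start, held 5.91% of suckling-only and 5.43% of adult-only peaks, against 19.6% of the shared peaks of either list. Introns held 47.3% of suckling-only and 51.0% of adult-only peaks, and intergenic sequence 38.7% and 35.4%. Many adult-only peaks had a suckling peak close by: 66.4% lay within 5 kb of one, at a median gap of 2.69 kb. Of the suckling-only peaks 39.4% lay within 5 kb of an adult peak, at a median gap of 7.49 kb. Suckling-only peaks were also more frequent near chromosome ends, with 12.4% within 5 Mb of one against 8.57% of adult-only peaks and 9.93% of shared suckling peaks. By chromosome the suckling-only share ran from 34.4% on chromosome 12 to 44.4% on chromosome 17, and the adult-only share from 20.6% on chromosome 12 to 30.1% on chromosome 8.

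The suckling list was the longer one, and its −log10 p values were lower, with medians of 7.78 and 11 in the replicates against 18.4 and 26.1, so the comparison was repeated on equal numbers. With the 104770 top peaks of each list by −log10 p, the suckling-only count fell to 32586 (31.1%) and the adult-only count rose to 34576 (33.0%), which turned the order of the stages. Ranked by IDR the counts were 32055 (30.6%) and 34049 (32.5%), and with the top 52385 peaks of each list 18395 (35.1%) and 19010 (36.3%). When both lists were limited to peaks with an IDR of 0.05 or lower, 14236 of 45939 suckling peaks (31.0%) and 21418 of 52733 adult peaks (40.6%) had no overlap. The excess of suckling-only over adult-only peaks was present with all peaks and absent on equal numbers. The GC contrast held in both, with medians of 55% for suckling-only and 45.5% for adult-only peaks on equal numbers.

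**Figure D2:**
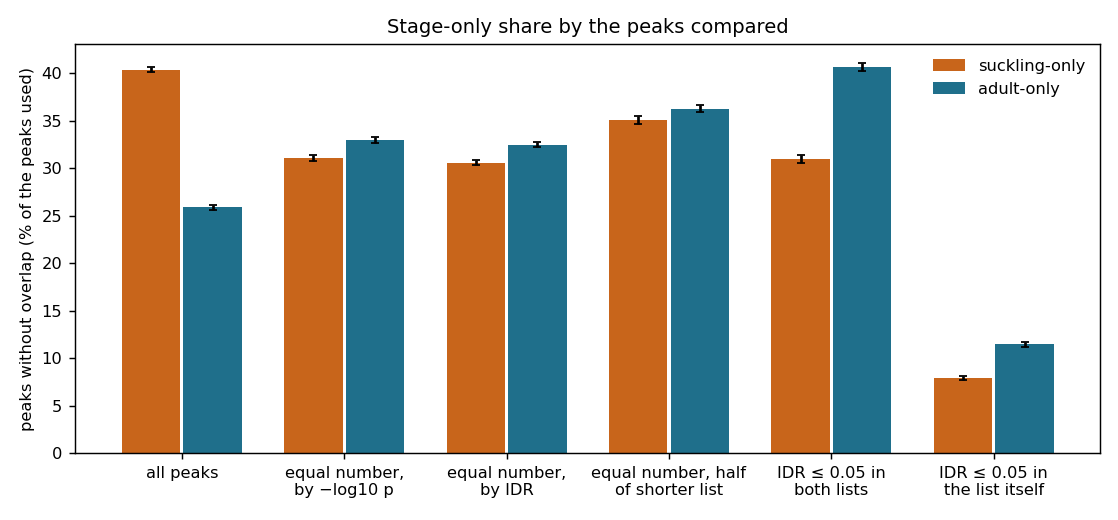
Share of peaks without an overlap in the other list (% of the peaks used, bars from 0, with 95% Wilson intervals) when all peaks, equal numbers of top peaks or only peaks with an IDR of 0.05 or lower were compared. Suckling-only peaks lead with all peaks (40.4% against 25.9%) and adult-only peaks lead in the other 5 comparisons, by 31.1% against 33.0% with equal numbers by −log10 p.

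At the level of genes, 18708 protein-coding genes were examined. A suckling-only promoter peak was found at 2822 of them (15.1%) and an adult-only promoter peak at 1361 (7.27%), 285 genes having both. With an IDR of 0.05 or lower the counts were 313 (1.67%) and 318 (1.70%). On equal numbers of top peaks they were 1961 (10.5%) and 2185 (11.7%). Most of these promoters also had a shared peak, 1621 of the 2822 and 1089 of the 1361. A promoter with a peak in the suckling list alone was found at 1197 genes (6.40%), and in the adult list alone at 246 (1.31%). A shared promoter peak was present at 12951 genes, and 4310 genes had no promoter peak in either list. All of the 1961 were among the 2822, and all of the 1361 were among the 2185, so equal numbers removed suckling genes and added adult ones. With both lists limited to an IDR of 0.05 or lower, 2158 genes (11.5%) and 2718 (14.5%) were called. They included 607 of the 2822 and 529 of the 1361, of which 313 and 318 had a stage-only peak that itself met the threshold. The rest were called through another promoter peak, whose partner in the other list did not meet it.

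Genes were then read by 27 lists of cell markers and pathways. Counts for a list are given beside these shares of all genes, 15.1% for suckling-only and 7.27% for adult-only promoters, and no list was tested.

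Blood cell markers stood furthest to the suckling side. Of 13 markers of Kupffer and other myeloid cells, 6 had a suckling-only promoter peak and 0 an adult-only one. Of 15 T and NK cell markers, 6 had a suckling-only promoter peak and 0 an adult-only one, and of 11 B and plasma cell markers 3 and 0. On equal numbers the counts were 6 and 0 for myeloid, 6 and 1 for T and NK cell and 2 and 1 for B cell markers. The adult-only T cell gene on equal numbers was CD8A, which then had a stage-only promoter peak at each stage. With the IDR threshold of 0.05 applied to both lists, where 11.5% and 14.5% of all genes were called, they were 4 and 0, 3 and 0, and 2 and 1. The 3 T and NK cell genes called there were not among the 6 called with all peaks. All 6 myeloid and all 6 T and NK cell genes were the same on equal numbers, and CSF3R and EBF1 were the blood cell genes whose own stage-only peak met the IDR threshold. CD68 and ITGAM were called under that threshold through another promoter peak. Promoter peaks in the suckling list alone were seen for TIMD4, LYZ, S100A8 and CSF3R among myeloid markers. CD163 and MARCO, 2 defining Kupffer cell receptors, had no promoter peak in either list. In whole tissue, fewer cells of a type and lower accessibility per cell cannot be told apart.

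Single immune promoters were weak to middling in the suckling list. CSF3R, the receptor for granulocyte colony-stimulating factor, had a suckling-only peak at chr6:92565077-92565765 with −log10 p of 9.12 in replicate 1 and 17.1 in replicate 2. Its IDR was 0.0302, and the nearest adult peak lay 3579 bp away. EBF1, a transcription factor of early B cells, had 19.3 and 17.0 with an IDR of 0.0257. Both thus passed the IDR threshold in the suckling replicates. CD8A, the coreceptor of cytotoxic T cells, had 17.2 and 9.85, and ITGAM, whose window is printed above, 11.8 and 6.82. CD5, a T cell surface protein, had 8.29 and 8.08, CD68, a lysosomal protein of macrophages, 7.41 and 8.97, and CD3E, a chain of the T cell receptor complex, 8.12 and 5.59. The IDR of these last 5 ran from 0.126 to 0.389, so their replicates did not reach the threshold. TIMD4, a receptor of resident macrophages for dying cells, had 6.37 and 5.37, with the nearest adult peak 91056 bp away. Over promoters and gene bodies together, 52.5% of the suckling peaks of the T and NK cell genes were suckling-only and 6.67% of their adult peaks adult-only. For all protein-coding genes these shares were 37.4% and 24.6%.

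Markers of fetal growth had suckling-only promoter peaks more often than adult-only ones when all peaks were compared. Of 12 genes 5 had a suckling-only promoter peak and 2 an adult-only one, and over promoters and gene bodies 50.6% of their suckling peaks were suckling-only against 16.3% of their adult peaks adult-only. IGF2BP1, an RNA-binding protein of fetal tissues, had −log10 p of 6.50 and 14.6 in the suckling replicates, with the nearest adult peak 35667 bp away. LIN28B, which blocks let-7 processing, had 5.84 and 11, and DLK1, an imprinted growth regulator, 3.29 and 5.82. These 3 had a promoter peak in the suckling list alone, and none reached an IDR of 0.05. AFP, the fetal albumin-like protein, had no promoter peak in either list. On equal numbers 3 suckling-only genes were left, IGF2BP1, LIN28B and MEST, so IGF2 and DLK1 were lost with the weaker suckling peaks.

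Cell division genes were largely open at both stages. Of 17 proliferation genes, 16 had a promoter peak in the suckling and 17 in the adult list, and CDC20, E2F1 and CCNB1 had an additional suckling-only one. CDC20, an activator of the anaphase-promoting complex, had 11.7 and 11.2 with an adult peak 136 bp away. The erythroid list, which marks the blood formation of the fetal liver, was thin in both, with promoter peaks at 4 of 10 genes in the suckling and 2 in the adult list. Of these genes 2 had a suckling-only and 1 an adult-only promoter peak. HBB, the adult beta globin, had a suckling-only peak with 7.87 and 22.0 in the replicates and none in the adult list within 28930 bp, and EPB42, a membrane protein of red cells, had 5.84 and 22.1. The adult-only gene was TAL1, at 33.7 and 7.96. With the IDR threshold in both lists the counts were 0 and 1, and that 1 gene was not TAL1.

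Nuclear receptors had more adult-only promoters than any of the other 26 lists. Of 26 genes 10 had an adult-only promoter peak and 6 a suckling-only one, and with an IDR of 0.05 or lower 7 and 1. All 10 were also called on equal numbers. With the IDR threshold in both lists 9 of them were called, 7 through the same peak. The suckling-only share of the list, 23.1%, was also above the 15.1% of all genes. Over promoters and gene bodies of the 26 genes, 28.5% of suckling peaks were suckling-only and 27.4% of adult peaks adult-only. Those shares were 37.4% and 24.6% for all protein-coding genes. THRB, the beta receptor of thyroid hormone, had −log10 p of 45.9 and 68.1 in the adult replicates at chr13:11260028-11260680, with the nearest suckling peak 18497 bp away. NR1H2, the liver X receptor beta, had 35.1 and 52.9, and NR0B2, the small heterodimer partner that represses bile acid synthesis, 20.2 and 28.9. NR1I2, the pregnane X receptor of drug metabolism, had 28.3 and 19. Of these genes, THRB, NR1H2 and NR0B2 had an IDR of 0.05 or lower and NR1I2 did not. The suckling-only side held PPARG, at 15.8 and 23.0, with an IDR of 0.00603 and no adult peak within 38270 bp. VDR, the vitamin D receptor, had 5.74 and 8.02. RARA, RXRA, ESRRA and PPARGC1A, which encode retinoid and estrogen-related receptors and a coactivator, had a stage-only promoter peak at each stage.

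The growth hormone axis had stage-only promoters on both sides, with the stronger ones in the adult list. Of 16 postnatal growth genes 6 had an adult-only and 5 a suckling-only promoter peak, and 2 and 0 with an IDR of 0.05 or lower. GHR, the growth hormone receptor, had an adult-only peak at −181 bp from a start, with −log10 p of 42.9 and 28.4, beside a shared promoter peak elsewhere. JAK2 had 31.7 and 25.1, in the window printed above. IGF1, the main product of growth hormone signalling in liver, had a weaker adult-only peak, at 8.35 and 10.2. The suckling-only peaks of STAT5B and IGFBP4, a transcription factor of the same pathway and a binding protein of insulin-like growth factors, were at 8.0 and 5.74 and at 5.09 and 10.4.

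Sterol and bile acid genes had further promoter peaks in the adult list, while their promoters were open at both stages. All 22 genes of cholesterol synthesis and uptake and all 21 of bile acid synthesis and transport had a promoter peak in both lists. Adult-only promoter peaks were found at 6 and 5 of them, and suckling-only ones at 3 and 1. CYP51, the lanosterol demethylase, had the strongest, at chr9:72080086-72080523, at −755 bp from a start, with values of 81.1 and 84.4, an IDR of 0.00178 and a suckling peak 244 bp away. INSIG2, which retains the sterol sensor in the endoplasmic reticulum, had 25.5 and 17.6. SLCO1B3, a hepatic uptake carrier of organic anions, had 57.8 and 23.1 at its start, and CYP8B1, the sterol 12-alpha-hydroxylase of cholic acid synthesis, 51.8 and 20.6. CYP27A1, a mitochondrial sterol hydroxylase, had 38.5 and 18.9. The replicates of these last 4 differed enough that their IDR was between 0.0692 and 0.112. ABCB4, the phospholipid exporter of bile, was the suckling-only gene, at 5.42 and 19.7. On equal numbers the adult-only counts stayed at 6 and 5, of the same genes.

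Lipoprotein and plasma protein genes leaned the same way. Of 23 lipoprotein genes 5 had an adult-only promoter peak and 0 a suckling-only one, and 7 and 0 on equal numbers. MTTP, which loads lipid onto apolipoprotein B, had −log10 p of 15.1 and 16.7, and APOA2, an apolipoprotein of high-density lipoprotein, 9.36 and 25.8. Of 33 acute phase, complement and coagulation genes 9 had an adult-only and 1 a suckling-only promoter peak, and 10 and 1 on equal numbers. SAA4, a serum amyloid A protein, had 78.0 and 29.5, and it had no suckling promoter peak. HP had 58.0 and 27.2, F5, coagulation factor V, 48.3 and 26.4, and ITIH3, an inter-alpha-trypsin inhibitor chain, 30.7 and 23.9. These 4 had an IDR from 0.0219 to 0.0316. C4BPA, a complement inhibitor, had a suckling-only peak at 10.9 and 15.4 and an adult-only one at 11.2 and 10.9. Among the 12 hepatocyte markers 4 had an adult-only promoter peak, AHSG, TAT, ALB and APOB, and 1 a suckling-only one, ASGR1. Over the promoters and bodies of those markers 43.0% of adult peaks were adult-only and 25.3% of suckling peaks suckling-only.

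Drug and amino acid metabolism leaned to the adult list. Of 35 genes of cytochrome P450 and drug conjugation 6 had an adult-only and 2 a suckling-only promoter peak, and over promoters and gene bodies 45% of their adult peaks were adult-only against 20.9% of their suckling peaks suckling-only. CYP2C34 had −log10 p of 62.1 and 52.7, FMO1, a flavin monooxygenase, 17.7 and 19.3, and EPHX1, the microsomal epoxide hydrolase, 12.8 and 21.1. These 3 were found with all peaks, with equal numbers and with the IDR threshold in both lists. CYP2C36 and EPHX1 had a promoter peak in the adult list alone. The cytochrome P450 genes of the 2C family lie side by side and resemble each other, so a read may have been placed at the wrong copy. Of 27 genes of the urea cycle and amino acid breakdown, 3 had an adult-only and 0 a suckling-only promoter peak. BHMT, which remethylates homocysteine, had 67.2 and 30.6, and SLC25A15, the mitochondrial ornithine carrier, 73.9 and 25.2.

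Sugar and fat metabolism was mixed. In gluconeogenesis and glycogen metabolism 5 of 19 genes had a suckling-only and 4 an adult-only promoter peak. PCK2 led the suckling side at 10.5 and 16.6, with an IDR of 0.0186, and PYGL, the liver glycogen phosphorylase, the adult side at 110 and 31.8. PPP1R3C had 21.6 and 24.9. On equal numbers the counts were 2 and 5. The peaks of PCK2, PYGL and PPP1R3C met the IDR threshold, and those of GOT1 and GPT, with 0.24 and 0.0513, did not. None of 19 genes of glycolysis and dietary sugar use had a stage-only promoter peak of either kind, while on equal numbers 3 had an adult-only one. In lipogenesis 3 of 21 genes had each kind. ACSS2 had −log10 p of 31.4 and 64.3 at 28 days in a peak that GGT7 shares, and ACACA, acetyl-CoA carboxylase, had an adult-only peak at −31 bp from a start, with values of 75.8 and 32.9, and a weak suckling-only one at another start at 4.04 and 8.0. Fatty acid oxidation and ketogenesis had 1 suckling-only and 3 adult-only genes of 22, none with an IDR of 0.05 or lower.

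**Figure D3:**
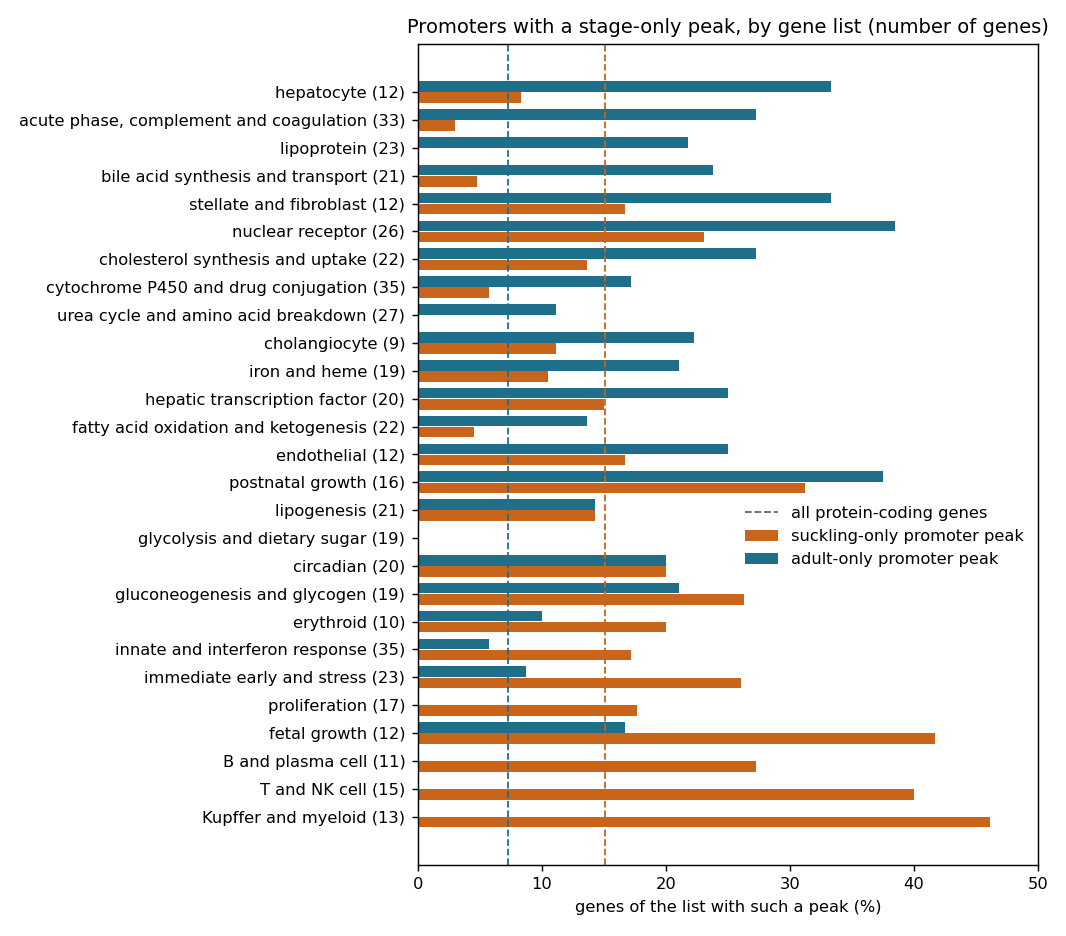
Share of each list's genes (%, bars from 0) with a suckling-only (orange) or adult-only (blue) promoter peak, with the number of genes in brackets and the shares of all protein-coding genes as dashed lines (15.1% and 7.27%). With all peaks, blood cell and fetal growth lists stand furthest to the suckling side, such as 46.2% against 0% for myeloid markers. Hepatocyte, plasma protein and lipoprotein lists then stand to the adult side, such as 27.3% against 3.03% for the acute phase list.

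The remaining lists were less one-sided or changed with the setting. The 20 circadian genes had 4 of each kind, with PER2, a repressor of the clock, adult-only at 53.2 and 37.4, and CLOCK, one of its activators, suckling-only at 8.58 and 12.8. The 23 immediate early and stress genes had 6 suckling-only and 2 adult-only promoters, and 3 and 4 on equal numbers, so that list changed side. The 35 innate and interferon genes likewise had 6 and 2, and 3 and 4. The 19 iron and heme genes had 2 and 4, and 2 and 8 on equal numbers, where 10.5% and 11.7% of all genes were called, with SMAD6, an inhibitor of BMP signalling, suckling-only at 13.1 and 29.4, and TMPRSS6, the protease that limits hepcidin, adult-only at 45.1 and 25. Stellate cell and fibroblast markers had 2 and 4 of 12, and over promoters and gene bodies 45% of their adult peaks were adult-only against 24.1% of their suckling peaks suckling-only, shares close to those of the hepatocyte markers. Endothelial markers had 2 and 3 of 12, and cholangiocyte markers 1 and 2 of 9. In these 3 lists no stage-only promoter peak had an IDR of 0.05 or lower. The 20 hepatic transcription factor genes had 3 and 5, also none at that threshold.

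**Figure D4:**
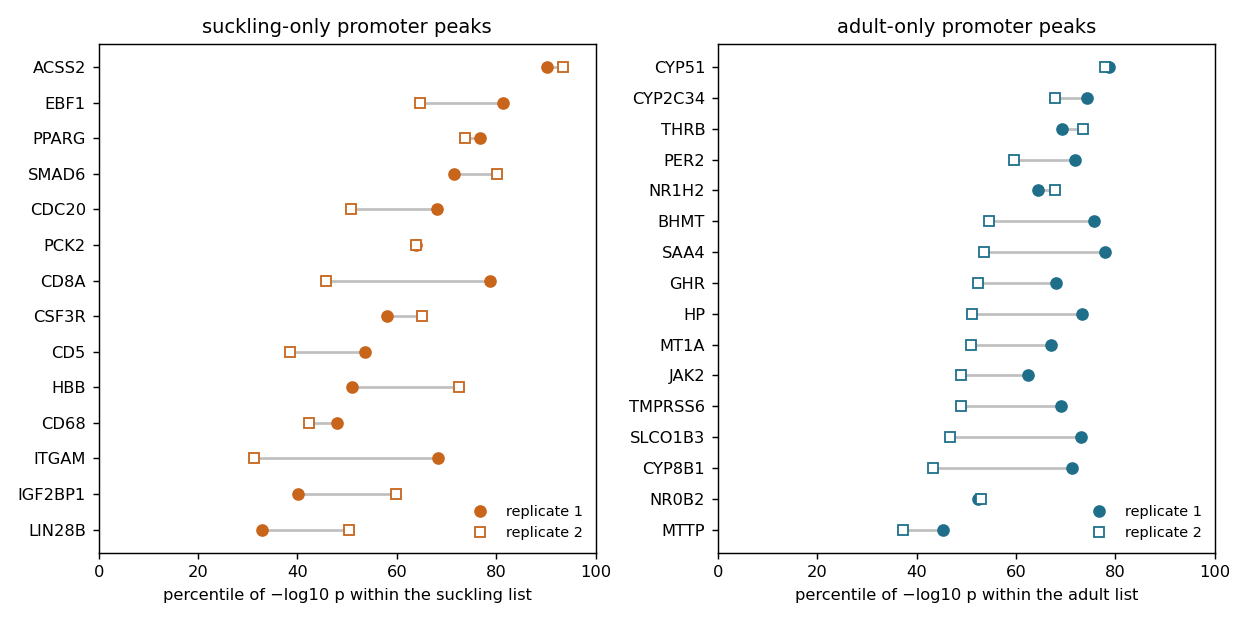
Percentile of the −log10 p value within its own list in replicate 1 (filled circles) and replicate 2 (open squares) for 14 suckling-only (left) and 16 adult-only (right) promoter peaks named in the text, joined by a grey line. CYP51 (78.6 and 78.0) and ACSS2 (90.3 and 93.4) rank high in both replicates, while ITGAM (68.3 and 31.3) and SLCO1B3 (73.1 and 46.7) differ between them.

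Across all genes, the strongest stage-only promoters were mostly outside these lists. The suckling side was led by DMRTA1, a DM-domain transcription factor, at 50.6 and 51.5, followed by ATL1, a GTPase of the endoplasmic reticulum, at 39.95 and 71.1, and by a peak that ITGA1 and PELO share, at 39.0 and 57.7. It also held genes best known from the nervous system, such as XKR4, PEX5L, RBFOX1 and ELFN1. XKR4 had no adult peak within 205260 bp. The adult side was led by COPZ2, a coat protein subunit, at 112 and 120, by FAM71F1 at 108 and 185, and by CNTRL, a centriole protein, at 124 and 106. C8B, a chain of complement component 8, had 94.4 and 84.2, and TEAD1, a transcription factor of the Hippo pathway, 114 and 69.9. Many of the adult peaks lay beside a suckling peak, 121 bp away for GMEB1 and 165 bp for GHDC.

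Counted over promoter and gene body, the genes with the most stage-only peaks were long. PTPRM, a receptor tyrosine phosphatase, had 46 suckling-only peaks of 81, and WWOX 46 of 108. PTPRN2, another phosphatase gene, had 43 of 46, against 3 adult peaks of which 0 were adult-only, and KIRREL3, a cell adhesion gene, had 39 of 42 against 5 adult peaks. On the adult side SOX5, a SOX family transcription factor, had 51 adult-only peaks of 89, against 8 suckling-only of 48, ZBTB20, a repressor abundant in liver, 37 of 84, and ROBO2, a guidance receptor, 31 of 45. PDE4D, a cAMP phosphodiesterase, was on both lists, with 39 suckling-only of 93 and 33 adult-only of 84. PTPRN2 and KIRREL3 thus had few called peaks in the adult list, while PDE4D had many in each.

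Shared promoters could differ in rank. For 11809 genes the strongest promoter peak of each list overlapped that of the other, and both percentiles were higher in the suckling list for 4855 (41.1%) and higher in the adult list for 2129 (18%). The ranks of the other 4825 overlapped. Percentiles were taken within each list, and the suckling list held 135635 peaks against 104770. The same place from the top thus gave a higher percentile in the suckling list. These ranks were not repeated on equal numbers of peaks. Blood cell promoters again ranked higher at 28 days, at 5 of 7 shared myeloid promoters and 5 of 8 T and NK cell promoters against 1 each in the adult list. CSF1R, the receptor of macrophage growth factor, stood at percentiles 56.1 and 52.3 in the suckling and 12.2 and 15.1 in the adult list, and SPI1, the master factor of myeloid cells, at 71.1 and 75.4 against 27.3 and 44.3. CD14, a coreceptor for endotoxin, was the myeloid exception. Endothelial promoters ranked higher at 28 days at 6 of 10 genes and higher in the adult at 0, PECAM1, KDR and VWF among the 6. Innate response promoters ranked higher at 28 days at 18 of 32 and in the adult at 5.

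Hepatocyte and plasma protein promoters ranked higher in the adult list. None of 9 shared hepatocyte promoters ranked higher at 28 days and 5 ranked higher in the adult, and of 27 acute phase, complement and coagulation promoters 3 and 14 did. AHSG, a plasma glycoprotein, stood at 18.4 and 21.6 in the suckling and 77.9 and 80.5 in the adult list. C5, complement component 5, stood at 24.9 and 34.8 against 70.5 and 61.3, and ORM1, an acute phase protein, at 74.9 and 69.4 against 96.2 and 91.3. NR1H4, the bile acid receptor, stood at 71.0 and 72.7 against 91.1 and 88.3, in a list where 4 of 20 shared promoters ranked higher at 28 days and 5 in the adult. PCK1, the cytosolic enzyme of gluconeogenesis, stood at 78.6 and 71.3 against 86.7 and 89.1, in a list where 6 of 17 ranked higher at 28 days and 4 in the adult. Bile acid promoters went the other way from their stage-only peaks, with 12 of 18 higher at 28 days and 3 higher in the adult, and SLC2A5, a fructose carrier of the sugar list, stood at 54.7 and 58.1 against 6.13 and 12.4. ABCC3, an exporter of conjugated bile acids, stood at 92.8 and 87.8 against 17.7 and 13.0, and FCGR3A, an Fc receptor of NK cells and macrophages, at 89.9 and 86.7 against 0.568 and 5.95. Ranks of wide intervals need care, since 29.0% of suckling and 16.2% of adult intervals over 1 kb had a smaller −log10 p under 10. FH, fumarate hydratase, which had the largest gap in favour of the adult list, stood at 10.7 and 16.8 against 99.6 and 99.4, and its suckling interval was of this kind. The adult interval of ABCC3, also over 1 kb, was of this kind too, with −log10 p of 6.50 and 6.86.

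Sequence matches differed between the stage-only peaks outside promoters. In the central 200 bp of 51536 suckling-only and 25668 adult-only peaks, 31 consensus sequences were counted on both strands. The share was higher in suckling-only peaks for 7 of them (22.6%) and higher in adult-only peaks for 18 (58.1%), with 95% intervals apart, and overlapped for the other 6. The share of all peaks of a list that hold the same letters, promoters included, is given in brackets as the background.

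The letters of hepatocyte factors were the more frequent in adult-only peaks. The CEBP consensus was found in 6.43% of suckling-only and 17.0% of adult-only peaks, against 8.76% of all suckling and 12.5% of all adult peaks. NFI was found in 10.4% and 21.0% (12.2% and 15.8% of all), HNF4A in 0.924% and 3.39% (1.71% and 2.56%), and FOXA in 2.11% and 5.81% (3.35% and 4.68%). ONECUT, searched as ATTGATT, was found in 1.07% and 4.8% (1.87% and 3.10%), and HNF1 in 0.0194% and 0.452% (0.154% and 0.307%). The D-box of PAR bZIP factors, which serve the liver clock, was found in 0.243% and 2.01% (0.512% and 1.09%). In each case shared suckling peaks lay between the stage-only classes, at 11.6% for CEBP and 15.2% for NFI.

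The suckling-only side held CTCF, SPI1 and consensus sequences rich in G and C. CTCF, the insulator protein, was found in 7.69% of suckling-only and 4.49% of adult-only peaks (8.01% and 7.90% of all), and SPI1 in 2.56% and 1.75% (2.36% and 2.24%). The nuclear factor kappa B consensus was found in 10.8% and 4.59% (10.2% and 8.14% of all), TFAP2 in 13.3% and 6.83% (13.8% and 12% of all), and SP1 KLF in 10.02% and 5.58% (15.6% and 15.7% of all). The MYOD type E-box was found in 18.1% and 13.8% (16.8% and 15.2%), and the SREBP sterol element in 1.07% and 0.670% (0.930% and 0.784%). Among immune factors, IRF, at 2.43% and 3.58% (2.66% and 3.10%), and STAT, at 4.14% and 7.39% (4.84% and 6.05%), were on the adult-only side. Shared suckling peaks outside promoters held the CTCF and SP1 KLF letters more often than suckling-only peaks did, at 8.98% and 11.4%. With both lists limited to an IDR of 0.05 or lower, CTCF was found in 15.1% and 5.58% and SPI1 in 3.62% and 1.49%, CEBP in 8.45% and 18% and HNF4A in 1.57% and 4.03%.

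GC content moved with these shares. For windows with a GC content from 45% to 55%, a class chosen after the data were seen, CEBP was found in 7.89% and 13.9%, NFI in 11% and 21.7%, HNF4A in 1.09% and 2.83%, CTCF in 6.56% and 4.46% and SPI1 in 2.95% and 1.62%, with intervals still apart. TFAP2, at 8.13% and 7.59%, and SP1 KLF, at 3.74% and 4.38%, then overlapped, as did the MYOD type E-box, SREBP and IRF. Each consensus was also searched with its letters in reversed order, which keeps its base composition but not its pairs of neighbouring letters. Reversal gives the CEBP, NFI and CTCF letters a CG pair that their consensus lacks. Their low reversed shares therefore cannot separate the consensus from its composition. The reversed CEBP letters were found in 1.5% and 2.4% and the reversed CTCF letters in 0.642% and 0.409%, far below the consensus, while reversed GATA and nuclear factor kappa B letters differed between the classes, as adult-only minus suckling-only, by 6.36 and −5.27 percentage points, close to the 8.05 and −6.21 points of the consensus. The same held for SP1 KLF, with −4.32 points reversed and −4.45 points for the consensus. For NFY the reversed letters differed by 6.04 and the consensus by 10.9 points, for FOXA by 2.42 and 3.7 points, and for ONECUT by 1.42 and 3.73 points. For NFI and HNF4A the reversed letters differed by 0.182 and 0.169 points, against 10.6 and 2.46 for the consensus.

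**Figure D5:**
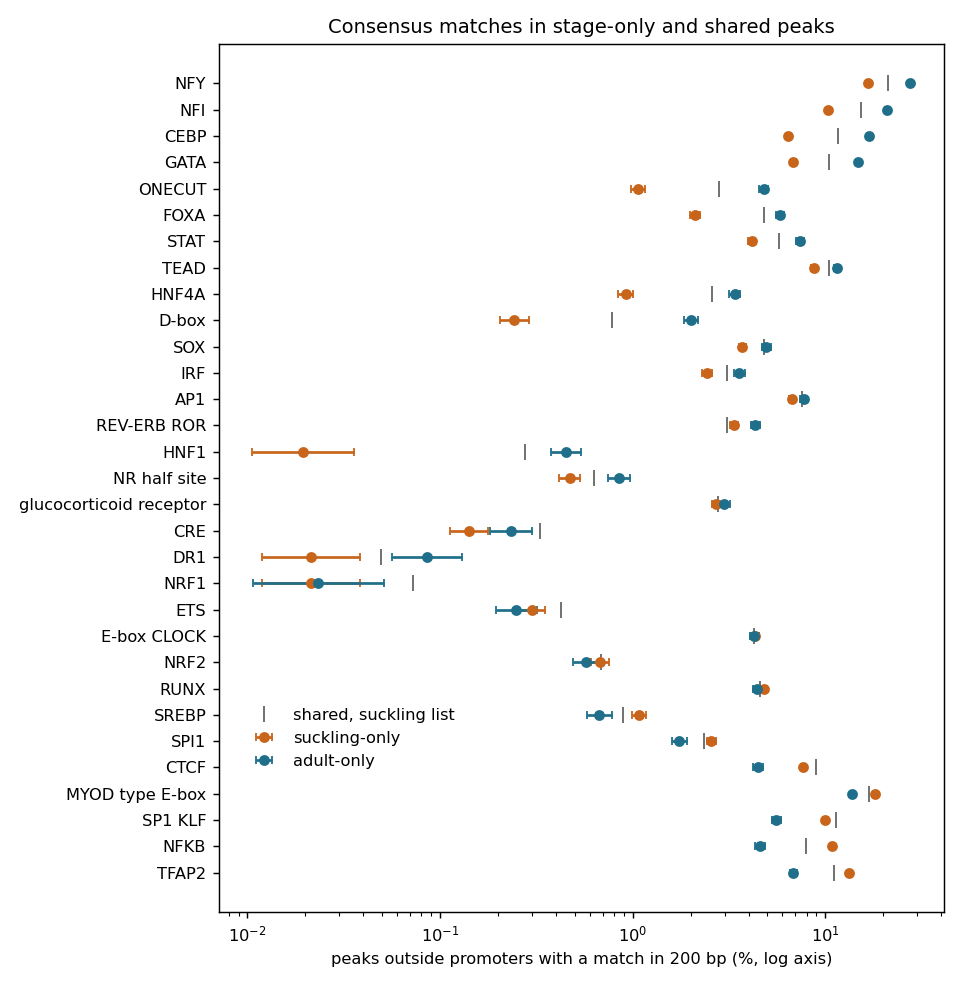
Share of peaks outside promoters whose central 200 bp hold a consensus match (%, log axis) for suckling-only (orange) and adult-only (blue) peaks, with 95% Wilson intervals as bars and shared suckling peaks as grey ticks. NFY, NFI, CEBP and GATA lead the adult side (17.0% against 6.43% for CEBP) and TFAP2, nuclear factor kappa B, SP1 KLF and CTCF the suckling side (7.69% against 4.49% for CTCF).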

How the data were processed

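Reads were aligned by the authors to Sscrofa11.1 with Bowtie2, filtered with SAMtools 1.3.1 (mapping quality of at least 10, no duplicate or mitochondrial reads), and peaks were called per replicate with MACS2. The 2 replicates of each stage were joined with IDR, so each deposited list holds, per peak, the −log10 p of both replicates, their smaller value, a score that is a scaled IDR, and the −log10 of the IDR. The deposited columns hold no read counts per peak. The study lists the reads, mapping ratio and peak number of each library, which were not used here. Either suckling replicate had more peaks than either adult replicate, and an adult replicate had the lowest mapping ratio of the series. The part of these differences in the stage-only calls was not tested.

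Here, peaks of chromosomes 1 to 18 were compared by overlap of at least 1 bp with Python 3.11.15, numpy 2.4.6, pandas 2.3.3 and scipy 1.17.1. Promoters ran from 2.2 kb upstream to 500 bp downstream of RefSeq transcript starts of 18708 protein-coding genes, and features followed the order promoter, exon, intron, downstream (300 bp) and intergenic. Of the genes of the 27 lists, 514 entries matched a symbol. Shares carry 95% Wilson intervals. No test between the stages was possible, and motif shares were called apart where their intervals did not overlap. Motifs were exact matches on both strands. The code was tested on simulated data.

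Named genes were, per stage, the 15 with the highest-ranked stage-only promoter peak at an IDR of 0.05 or lower, up to 4 stage-only genes and 4 others per list, the 6 with the most stage-only peaks, and the 8 with the largest rank gap of a shared promoter peak. Further genes found in several comparisons were named after their values were seen. Members and lists were chosen with earlier results of these data known. Some results are not reported here. The newborn liver and other tissues were not used here. Alternatives covered the ranking, the IDR threshold, the overlap, each replicate, the promoter width and the gene set.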

Additional observations from a re-analysis of the deposited data

How the results depend on the processing

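The number of suckling-only peaks depended on the length of the list. The count of 54773 became 32586 with an equal number of top peaks by −log10 p, 32055 by IDR, 18395 with the top 52385 peaks of each list, 14236 with an IDR of 0.05 or lower in both lists and 3651 with that threshold in the suckling list alone. The 27143 adult-only peaks moved by more than 1.5 times only with the threshold in the adult list alone, to 6046. Genes with a suckling-only promoter peak, 2822 in all, numbered 313 with that threshold, 1731 with no adult peak within 1 kb and 1799 with a shorter promoter. Genes with an adult-only promoter peak, 1361 in all, numbered 2185, 2126 and 2297 with the 3 equal-number settings, 2718 and 318 with the threshold in both lists and in the adult list alone, 604 with no suckling peak within 1 kb and 774 with the shorter promoter. Genes with a promoter peak in the suckling list alone, 1197 in all, numbered 202 with the threshold in that list and 1800 over all annotated genes. Those in the adult list alone, 246 in all, numbered 756, 726 and 1436 with equal numbers, 1799 and 68 with the threshold, and 467 over all annotated genes.

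With the intervals of either replicate alone in place of the merged ones, without the other, the counts ran from 55210 to 56370 suckling-only and 27451 to 28161 adult-only peaks, 2810 to 2941 and 1377 to 1419 genes, and 1180 to 1207 and 247 to 255 genes with peaks in 1 list alone. The peaks compared were the same ones, already matched in both replicates, so this moved interval edges only and says nothing about stability between animals. The 7 and 18 motif calls became 5 and 14 in windows with a GC content from 45% to 55%, of which 3 and 13 were among the 7 and 18. That class and the limit to peaks of 1 kb or narrower (54409 and 26893 peaks) were chosen after the data were seen. No paired analysis was possible because the result comes from no test and the replicates were merged before deposition. Without read counts, a weak peak at one stage may have been missed at the other, and this was not tested.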

Other observations

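Ranks of shared promoters in the lists not described above were read against the 41.1% of all genes that ranked higher at 28 days and the 18% that ranked higher at 180 days, without a test. Of 20 shared circadian promoters, 6 ranked higher in both adult replicates and 2 in both suckling replicates. Of 22 promoters of cholesterol synthesis and uptake, 3 ranked higher in the adult list and 8 in the suckling list, and these shares were near those of all genes. Promoters of the urea cycle and amino acid breakdown divided evenly, with 8 of 24 higher at each stage. Among glycolysis and dietary sugar promoters 7 of 17 ranked higher at 28 days and 3 at 180 days, shares near those of all genes, and among fatty acid oxidation and ketogenesis promoters 6 and 5 of 21.

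CYP7A1, the rate-limiting enzyme of bile acid synthesis, had a shared promoter peak, at percentiles 66.6 and 77.8 at 28 days and 58.4 and 66.3 at 180 days. GINS1, a subunit of the replication fork helicase, stood at 89.0 and 81.9 against 9.01 and 2.40, although most proliferation promoters were open at both stages. ADAMTS1, a secreted protease, stood at 93.8 and 90.2 against 20.7 and 8.86.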
